A study of Mus musculus with 14 samples.

Results

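The genes described here are 37 marker genes of blood monocytes and neutrophils, taken as a named list from a table of 41739 genes. Of these, 17 mark monocytes and 20 mark neutrophils. The table gave TPM (a transcript's abundance, with reads divided by gene length and scaled to a common total) in 14 bulk RNA-seq libraries of cells that the labels call microglia, purified with magnetic beads from mouse brain. The mice, aged 8 weeks and treated with tamoxifen, had been given LPS, the endotoxin of Gram-negative bacteria, at 1.0 mg/kg, or PBS, injected into the peritoneum daily for 4 days. The 4 groups were KO LPS (Rheb F/F; Tmem119-cre ER given LPS, 4 libraries), WT LPS (Rheb F/F given LPS, 4 libraries), KO PBS (Rheb F/F; Tmem119-cre ER given PBS, 3 libraries) and WT PBS (Rheb F/F given PBS, 3 libraries). Rheb, the GTPase that activates mTORC1, carried floxed alleles in all mice. Cre, tied to the microglial gene Tmem119 and active with tamoxifen, was present in KO mice and absent in WT mice, so that effects of Cre and of Rheb loss cannot be told apart. Nothing in the labels says that each library is a separate animal, and p-values measure the spread between these libraries.

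Classical monocytes leave the bone marrow through the chemokine receptor Ccr2, carry Ly6C on their surface and enter inflamed tissue. Patrolling monocytes crawl along vessel walls with the integrin LFA-1. Neutrophils mature in the marrow in steps: early precursors transcribe the enzymes of primary granules, later precursors the proteins of secondary and tertiary granules, and mature cells the receptors with which they sense chemokines, cytokines and microbes. In the healthy brain, few of these cells lie in the tissue itself, and more are found in vessels, meninges and skull marrow. The question was whether transcripts of the marker genes of these blood cells were higher after LPS.

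Recovered depth ran from 8.00 M reads (KO_LPS_4) to 32.3 M reads (WT_LPS_1). Rheb stood at 19.5 to 25.5 TPM in KO LPS, 25.1 to 33.6 TPM in WT LPS, 16.6 to 19.1 TPM in KO PBS and 29.7 to 34.5 TPM in WT PBS. The 11 microglia markers used, among them P2ry12 and Cx3cr1, summed to 9899 to 13730.0 TPM in KO LPS, 13479 to 16798 TPM in WT LPS, 23106 to 24031 TPM in KO PBS and 20972 to 26614 TPM in WT PBS, so that the labelled cell type was present in every library. The libraries labelled WT_PBS_914 and KO_LPS_3 stood apart through pituitary transcripts, with 78126 and 19672 TPM of the growth hormone gene Gh, against at most 1.90 TPM in the other 12. Treatment also ran together with sex-linked transcripts, against the labels, which call the mice female. Xist stood at 255 to 574 TPM in the 8 LPS libraries and at no more than 0.147 TPM in the 6 PBS libraries, and Ddx3y at no more than 0.27 TPM with LPS and at 111 to 146 TPM with PBS. Effects of LPS and of sex cannot be told apart in any LPS comparison below. The short noncoding RNA Gm23935 took 40440 to 153781 TPM in LPS libraries and 566 to 2477 TPM in PBS libraries, which bears on the scale of every other value.

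Transcripts of most monocyte genes were higher after LPS in both genotypes, and the calls among neutrophil genes differed by role. In KO mice, 26 of the 37 genes rose with LPS and 0 fell (limma on log2(TPM + 1), Benjamini-Hochberg adjusted p under 0.05), where 7.82% of the 18724 genes tested rose and 26.9% fell. In WT mice, 21 of 37 rose and 0 fell, where 7.95% of genes tested rose and 34.1% fell. All 37 passed the filter of 1 TPM in at least 3 libraries and stood at 1 TPM or more in every library. The median log2 fold change of the 37 was 1.89 in KO and 1.26 in WT, beside -0.22 and -0.28 over all genes tested. With median-of-ratios scaling, which sets the typical gene near 0 (medians 0.00 in KO and 0.01 in WT), 26 genes rose in KO (12.4% of genes tested) and 23 in WT (16.1%). Under that scaling, calls over all genes split into 2331 higher and 1921 lower in KO, in place of 1465 and 5029, and into 3022 higher and 2471 lower in WT, in place of 1488 and 6378. In 29 genes every KO LPS library lay above every KO PBS library (9.52% of all genes tested), and in 18 genes every WT LPS library lay above every WT PBS library (8.45%). In bulk RNA, more cells of a type and more RNA per cell cannot be told apart. Nor does it show whether microglia or blood cells made these transcripts, which was not tested.

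By role, all 14 classical monocyte genes rose in KO and 13 in WT, and 2 of the 3 patrolling monocyte genes rose in each genotype. Among neutrophil genes, 1 of 9 for granule proteins and enzymes rose in KO and 0 in WT. Fold changes were above 0 for all 9 in KO (median 1.01) and for 4 in WT (median -0.27). Without WT_PBS_914, 4 of the 9 were called in KO and 1 in WT, where 8.14% and 6.93% of genes tested were called higher. The WT median was then 0.59. Of the 6 genes for S100 and other secreted or cytosolic proteins, 6 rose in KO and 2 in WT. Of the 5 receptor and surface genes, 3 rose in KO and 4 in WT. The 2 LPS comparisons shared 20 called genes, which were 76.9% of the 26 in KO and 95.2% of the 21 in WT. The 10 called in neither were Ace, Ltf, Camp, Ngp, Mmp9, Elane, Mpo, Padi4, Hdc and Ly6g.

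**Figure D1:**
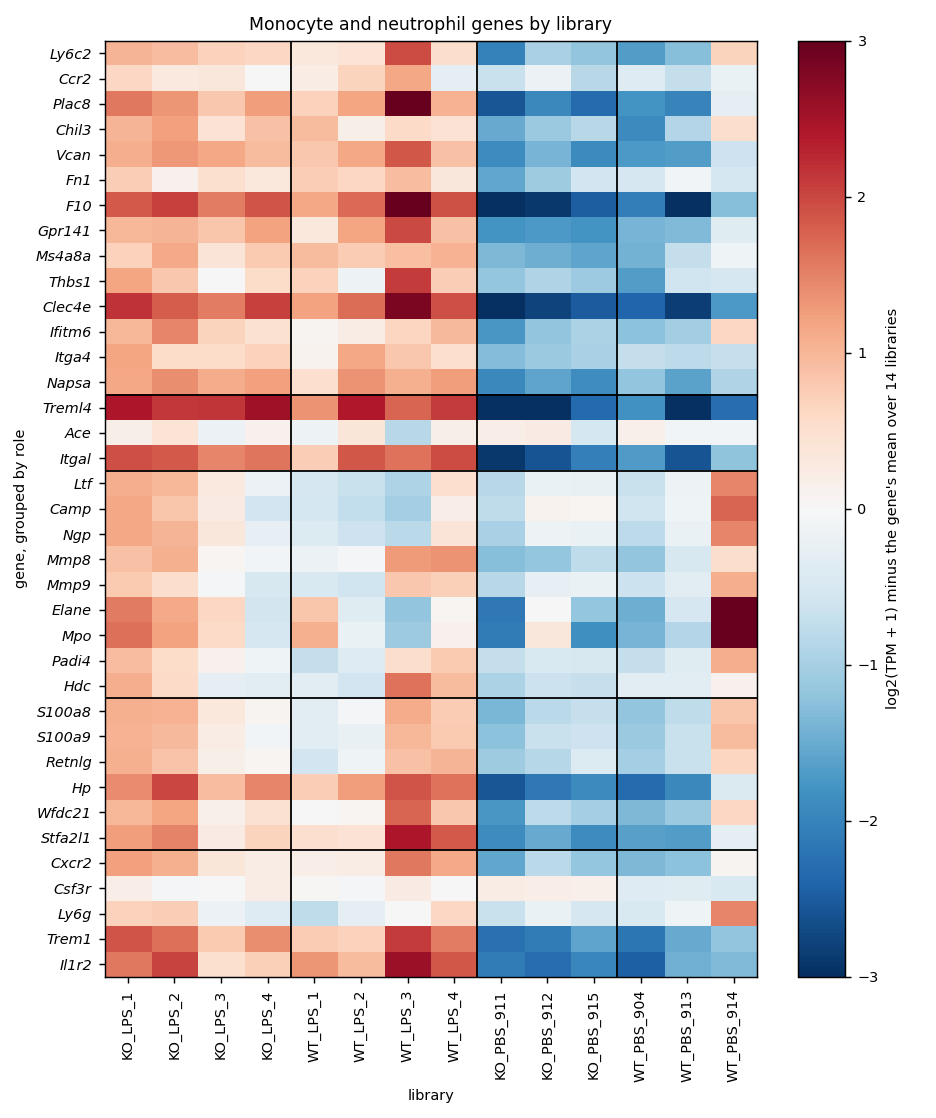
Each row is 1 of the 37 genes, grouped by role (classical monocyte, patrolling monocyte, neutrophil granule and enzyme, neutrophil S100 and secreted, neutrophil receptor and surface), and each column 1 of the 14 libraries. Colour gives log2(TPM + 1) minus the mean of that gene over all libraries; the LPS columns are red and the PBS columns blue for most monocyte genes, while WT_PBS_914 is the highest PBS library for 32 of 37 genes.

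Promoters were set beside these values for some genes that were called with LPS and some that were called in neither genotype. The windows below run from 250 bases before to 50 bases after the annotated start, 5′ to 3′ on the strand of the gene, from RefSeq on GRCm38.p6, which held 30 of the 37 genes. Clec4e (chr6:123289822-123290121, minus strand) and Treml4 (chr17:48264045-48264344, plus strand) are shown because they rose most among monocyte receptor genes, S100a8 (chr3:90668821-90669120, plus strand) as an abundant neutrophil transcript, and Ngp (chr9:110419558-110419857, plus strand) and Elane (chr10:79886062-79886361, plus strand) as granule genes that were not called. Capitals mark matches, on either strand, to TTGCNNAA, letters bound by C/EBP factors, and to GAGGAA, letters bound by PU.1, the factors that direct myeloid genes.
Clec4e: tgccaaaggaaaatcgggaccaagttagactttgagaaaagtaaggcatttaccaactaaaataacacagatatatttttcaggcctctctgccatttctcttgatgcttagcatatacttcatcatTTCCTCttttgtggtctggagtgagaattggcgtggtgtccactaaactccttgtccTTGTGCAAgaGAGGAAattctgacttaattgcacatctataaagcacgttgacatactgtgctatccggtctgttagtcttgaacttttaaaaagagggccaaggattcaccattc
Treml4: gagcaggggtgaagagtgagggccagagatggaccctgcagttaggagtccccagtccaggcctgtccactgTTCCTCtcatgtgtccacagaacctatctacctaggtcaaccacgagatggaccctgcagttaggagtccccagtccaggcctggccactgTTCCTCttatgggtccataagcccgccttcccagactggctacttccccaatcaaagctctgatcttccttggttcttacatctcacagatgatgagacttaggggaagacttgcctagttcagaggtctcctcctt
S100a8: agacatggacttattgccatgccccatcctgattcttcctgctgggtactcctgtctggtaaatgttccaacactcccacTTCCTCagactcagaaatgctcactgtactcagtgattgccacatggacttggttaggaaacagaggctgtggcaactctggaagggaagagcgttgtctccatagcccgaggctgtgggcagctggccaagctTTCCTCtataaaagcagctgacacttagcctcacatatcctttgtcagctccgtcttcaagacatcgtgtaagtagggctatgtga
Ngp: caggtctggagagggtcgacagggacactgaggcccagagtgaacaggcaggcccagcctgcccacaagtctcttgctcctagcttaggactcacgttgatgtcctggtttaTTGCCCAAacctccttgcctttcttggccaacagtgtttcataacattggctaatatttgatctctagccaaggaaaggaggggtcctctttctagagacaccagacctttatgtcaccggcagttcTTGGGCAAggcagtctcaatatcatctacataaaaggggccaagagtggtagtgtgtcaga
Elane: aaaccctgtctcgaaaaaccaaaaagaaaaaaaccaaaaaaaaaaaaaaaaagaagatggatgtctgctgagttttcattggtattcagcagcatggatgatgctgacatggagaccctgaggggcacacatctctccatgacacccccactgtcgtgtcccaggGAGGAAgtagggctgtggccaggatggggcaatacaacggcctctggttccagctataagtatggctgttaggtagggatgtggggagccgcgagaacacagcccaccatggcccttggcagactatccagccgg

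Clec4e held 1 match to TTGCNNAA and 2 to GAGGAA, and Ngp held 2 matches to TTGCNNAA and 0 to GAGGAA. Treml4 and S100a8 held 2 matches to GAGGAA each, and Elane held 1. TTGCNNAA was found in 7 of the 30 promoters (23.3%) and in 10.8% of 27025 promoters of the same length, on both strands. GAGGAA was found in 15 of 30 and in 28.3% of all promoters. In all, 10 spellings of letters bound by 5 factors or factor families were searched, and TTGCNNAA and GAGGAA were chosen for display after the counts had been seen. Of the other C/EBP spellings, TTNNGCAAT was found in 2 of 30 and in 2.18% of all promoters, and TTGCNCAA in 5 of 30 and in 2.92%. Of the other PU.1 spellings, GAGGAAGT was found in 6 of 30 and in 3.28%, and AGAGGAAGT in 2 of 30 and in 1.05%. A 10-letter NF-kB motif was found in 0 of 30 and in 1.17% of all promoters, and a looser one of the same length in 6 of 30 and in 20.5%. The STAT letters TTCNNNGAA were found in 4 of 30 and in 8.47%, and the AP-1 letters TGANTCA in 2 of 30 and in 7.93%. Spellings of one factor overlap, as GAGGAAGT contains GAGGAA, and matches to different motifs may share bases. No test was made of these shares, and the spelling chosen sets how far they lie from those of all promoters. A match is a description of letters in this window and not a site of binding.

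Values below follow the library order KO_LPS_1, KO_LPS_2, KO_LPS_3 and KO_LPS_4, WT_LPS_1, WT_LPS_2, WT_LPS_3 and WT_LPS_4, KO_PBS_911, KO_PBS_912 and KO_PBS_915, and WT_PBS_904, WT_PBS_913 and WT_PBS_914. Fold changes are differences of mean log2(TPM + 1), LPS minus PBS, with their standard errors.

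Among surface and secreted markers of classical monocytes, Ly6c2, the gene of the Ly6C antigen, stood at 111, 104, 88.1 and 83.1 TPM in KO LPS, 68.1, 72.3, 212 and 78.5 TPM in WT LPS, 12.6, 26.9 and 23.1 TPM in KO PBS, and 16.2, 21.8 and 86.9 TPM in WT PBS. All KO LPS libraries lay above all KO PBS libraries, whereas WT_PBS_914 lay above 3 of the 4 WT LPS libraries. The log2 fold change was 2.21 ± 0.51 in KO (adjusted p = 0.00478) and 1.56 ± 0.51 in WT (adjusted p = 0.0252). The WT call was lost without WT_LPS_3 (1.18, adjusted p = 0.0664), without WT_PBS_904 (1.11, adjusted p = 0.128) and without WT_PBS_913 (1.31, adjusted p = 0.0994), and without WT_PBS_914 the fold change was 2.28. The WT call was also lost with the WT groups fitted alone (adjusted p = 0.0717). Of the 50-base stretches in Ly6c2 transcripts, 14.4% also occur in other genes, most of all in Ly6c1, an endothelial gene. Reads could therefore be split between these genes. Ly6c1 itself was not called (0.78 in KO and 0.13 in WT). Ccr2, the receptor for Ccl2, stood at 53.9, 43.2, 44.5 and 34.4 TPM in KO LPS, 40.6, 55.9, 78.9 and 28.7 TPM in WT LPS, 21.6, 31.02 and 19.2 TPM in KO PBS, and 26.3, 20.8 and 30.4 TPM in WT PBS. Its LPS libraries were higher than PBS libraries without overlap in KO, and WT_LPS_4 fell within the WT PBS range. Both calls were modest, at 0.86 ± 0.28 in KO and 0.88 ± 0.28 in WT (adjusted p = 0.0311 and 0.0245). With the WT groups fitted alone, the WT call was lost (adjusted p = 0.0559). The KO call was lost without any 1 of KO_LPS_1, KO_LPS_2, KO_LPS_3, KO_PBS_911 or KO_PBS_915, where the fold change was 0.73 to 0.86 (adjusted p = 0.0558 to 0.116), and the WT call without any 1 of WT_LPS_2, WT_LPS_3, WT_PBS_904 or WT_PBS_913, where it was 0.64 to 0.90 (adjusted p = 0.058 to 0.0971).

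Plac8, which encodes a small cysteine-rich protein abundant in classical monocytes, stood at 311, 260.3, 184 and 247 TPM in KO LPS, 169, 236, 838 and 215 TPM in WT LPS, 16.7, 26.3 and 20.3 TPM in KO PBS, and 29.3, 25.2 and 84.4 TPM in WT PBS. LPS and PBS libraries did not overlap in either genotype, and WT_LPS_3 was far above the other WT LPS libraries. Plac8 rose by 3.51 ± 0.50 in KO (adjusted p = 0.000225) and by 2.84 ± 0.50 in WT (adjusted p = 0.000947). Chil3, the gene of the chitinase-like protein Ym1, stood at 971, 1131, 644 and 885 TPM in KO LPS, 925, 545, 715 and 650.3 TPM in WT LPS, 166, 221 and 269 TPM in KO PBS, and 127, 259.9 and 693 TPM in WT PBS. It was the highest of the 17 monocyte genes by mean TPM, and WT_PBS_914 again lay within the WT LPS range. The rise was 2.04 ± 0.42 in KO (adjusted p = 0.00256) and 1.29 ± 0.42 in WT (adjusted p = 0.0265). In WT the call was lost without WT_LPS_1 (1.15), WT_LPS_3 (1.28), WT_PBS_904 (0.71) or WT_PBS_913 (1.22), with adjusted p from 0.0504 to 0.139, and the fold change was 1.93 without WT_PBS_914. The WT call was also lost with the WT groups fitted alone (adjusted p = 0.0713). Chil3 shares 26.9% of its 50-base stretches with other genes, most of all with Chil4, so that reads could be split between them. Ifitm6, of the family of interferon-induced transmembrane proteins, stood at 348, 484, 277 and 241 TPM in KO LPS, 185, 203, 275 and 342 TPM in WT LPS, 51.4, 76.8 and 90.5 TPM in KO PBS, and 73.4, 84.8 and 269.5 TPM in WT PBS. KO LPS libraries were all above KO PBS libraries, and WT_PBS_914 lay within the WT LPS range. Ifitm6 rose in KO (2.18 ± 0.40, adjusted p = 0.00121) and was not called in WT (1.03 ± 0.40, adjusted p = 0.0538), where it was called without WT_PBS_914 (1.62, adjusted p = 0.00191) and without WT_LPS_1 (1.16, adjusted p = 0.0481).

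Genes for matrix and coagulation proteins made by monocytes all rose. Vcan, the gene of the proteoglycan versican, stood at 23.3, 27.5, 24.8 and 21.2 TPM in KO LPS, 19.2, 24.7, 40.97 and 20.1 TPM in WT LPS, 2.13, 3.35 and 2.05 TPM in KO PBS, and 2.48, 2.59 and 6.48 TPM in WT PBS. The lowest LPS library, at 19.2 TPM, lay above the highest PBS library, at 6.48 TPM. F10, the gene of coagulation factor X, stood at 93.5, 109, 75.1 and 96.6 TPM in KO LPS, 58.2, 84.97, 213 and 98.3 TPM in WT LPS, 2.101, 2.54 and 3.75 TPM in KO PBS, and 5.32, 1.74 and 9.94 TPM in WT PBS. It was low in every PBS library and did not overlap between treatments. F10 rose by 4.65 ± 0.44 in KO (adjusted p = 1.39e-05) and by 4.15 ± 0.44 in WT (adjusted p = 4.04e-05), and Vcan by 2.86 ± 0.29 and 2.52 ± 0.29 (adjusted p = 2.37e-05 in KO and 7.71e-05 in WT). Fn1, which encodes fibronectin, stood at 294, 189.8, 242 and 219 TPM in KO LPS, 294, 268, 334 and 223 TPM in WT LPS, 58.7, 83.5 and 118 TPM in KO PBS, and 124, 164 and 120.01 TPM in WT PBS. WT_PBS_914 held 0.834 times the mean of WT_PBS_904 and WT_PBS_913, the lowest such ratio of the 37 genes. Thbs1, the gene of thrombospondin 1, stood at 112, 86.7, 49.2 and 71.9 TPM in KO LPS, 78.7, 43.6, 213 and 81.7 TPM in WT LPS, 21.3, 25.7 and 22.5 TPM in KO PBS, and 14.6, 31.7 and 33.9 TPM in WT PBS. WT_LPS_3 was the highest library for both genes, and neither overlapped between LPS and PBS. The rises were 1.47 ± 0.22 in KO and 1.03 ± 0.22 in WT for Fn1, and 1.69 ± 0.44 in KO and 1.77 ± 0.44 in WT for Thbs1.

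The last group of classical monocyte genes encodes receptors and other membrane or lysosomal proteins. Clec4e, the gene of the C-type lectin receptor Mincle, which senses microbial glycolipids, stood at 165, 129, 106 and 152 TPM in KO LPS, 84.9, 116, 260.3 and 141 TPM in WT LPS, 3.47, 4.42 and 5.57 TPM in KO PBS, and 6.16, 4.26 and 10.3 TPM in WT PBS. The lowest LPS library, at 84.9 TPM, lay well above the highest PBS library, at 10.3 TPM. Clec4e rose by 4.66 ± 0.33 in KO (adjusted p = 1.56e-06) and 4.21 ± 0.33 in WT (adjusted p = 4.33e-06). Napsa, an aspartic protease gene, stood at 62.9, 73.8, 61.2 and 66.2 TPM in KO LPS, 39.7, 71.3, 59.3 and 67.5 TPM in WT LPS, 6.55, 8.51 and 6.82 TPM in KO PBS, and 11.7, 8.39 and 14.2 TPM in WT PBS. It had the smallest adjusted p of the 37 genes in KO (8.40e-07, log2 fold change 3.02 ± 0.20), and its WT rise was 2.28 ± 0.20 (adjusted p = 8.40e-06). Itga4, the α4 integrin chain that binds Vcam1 on endothelium, stood at 39.4, 25.3, 24.999 and 27.9 TPM in KO LPS, 18.2, 39.1, 30.1 and 24.5 TPM in WT LPS, 6.29, 7.302 and 8.097 TPM in KO PBS, and 9.96, 9.43 and 10.1 TPM in WT PBS. Libraries of LPS and PBS did not overlap in either genotype, and the rise was 1.87 ± 0.22 in KO and 1.37 ± 0.22 in WT. Gpr141, an orphan G protein-coupled receptor gene, stood at 22.7, 23.03, 20.1 and 26.2 TPM in KO LPS, 13.8, 25.99, 45.6 and 20.97 TPM in WT LPS, 2.401, 2.59 and 2.44 TPM in KO PBS, and 3.498, 3.78 and 8.23 TPM in WT PBS. Ms4a8a, of the MS4A family of membrane proteins, stood at 9.71, 13.7, 7.74 and 10.4 TPM in KO LPS, 11.9, 10.2, 11.4 and 12.7 TPM in WT LPS, 1.598, 1.42 and 1.201 TPM in KO PBS, and 1.47, 3.04 and 5.08 TPM in WT PBS. Both were low genes without overlap between treatments, and rose by 2.78 ± 0.32 and 2.22 ± 0.26 in KO and by 2.12 ± 0.32 and 1.67 ± 0.26 in WT (adjusted p at most 0.000462 for each).

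The 3 patrolling monocyte genes parted. Treml4, a receptor gene of the TREM family, stood at 164, 134, 136 and 178 TPM in KO LPS, 77.1, 162, 102 and 132 TPM in WT LPS, 2.26, 1.503 and 5.13 TPM in KO PBS, and 7.71, 1.66 and 5.32 TPM in WT PBS. It had the largest rise of the 37 genes in both genotypes, at 5.37 ± 0.38 in KO (adjusted p = 1.63e-06) and 4.45 ± 0.38 in WT (adjusted p = 8.75e-06). The mean TPM was 51.6 times that of PBS in KO and 24.1 times in WT. Itgal, the αL chain of LFA-1 (also carried by other leukocytes), stood at 279, 258, 201 and 220.2 TPM in KO LPS, 121, 265, 224 and 282 TPM in WT LPS, 8.73, 11.1 and 16.6 TPM in KO PBS, and 21.3, 11.1 and 30.8 TPM in WT PBS. It too showed no overlap, and rose by 4.23 ± 0.33 in KO (adjusted p = 3.93e-06) and 3.38 ± 0.33 in WT (adjusted p = 2.41e-05). Ace, the gene of angiotensin-converting enzyme, which endothelium also makes, stood at 89.4, 106, 70.3 and 87.2 TPM in KO LPS, 71.9, 103, 44.2 and 89.7 TPM in WT LPS, 91.9, 94.6 and 54.6 TPM in KO PBS, and 89.2, 74.8 and 75.4 TPM in WT PBS. LPS and PBS libraries overlapped, and Ace was not called, at 0.16 ± 0.26 in KO and -0.11 ± 0.26 in WT; the WT value was 0.23 with median-of-ratios scaling.

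**Figure D2:**
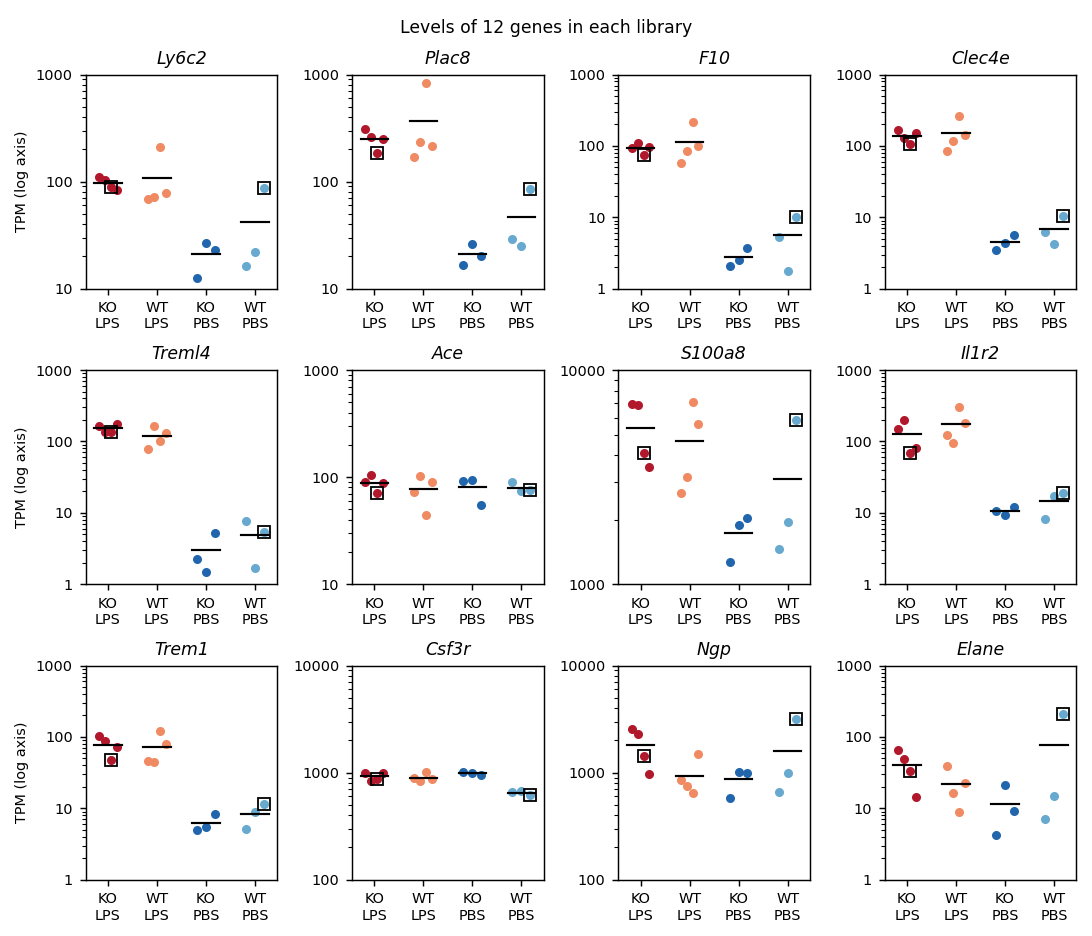
TPM of 12 genes in each library on log axes that differ between panels, in the groups KO LPS, WT LPS, KO PBS and WT PBS; points are libraries, lines are group means, and squares mark KO_LPS_3 and WT_PBS_914. Monocyte genes such as F10, Clec4e and Treml4 separate LPS from PBS, Ace does not, and Ngp and Elane are highest in WT_PBS_914 (3138 and 209.7 TPM).

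Granule genes of neutrophils gave few calls. Elane and Mpo, which encode elastase and myeloperoxidase of the primary granules, are transcribed in marrow precursors. Elane stood at 65.2, 48.7, 33.6 and 14.4 TPM in KO LPS, 39.4, 16.6, 8.96 and 22.6 TPM in WT LPS, 4.17, 21.4 and 9.13 TPM in KO PBS, and 7.15, 14.96 and 209.7 TPM in WT PBS. Mpo stood at 34.4, 25.1, 15.7 and 6.92 TPM in KO LPS, 22.4, 8.85, 4.27 and 11.3 TPM in WT LPS, 1.62, 13.2 and 2.15 TPM in KO PBS, and 3.28, 5.13 and 89.7 TPM in WT PBS. Both were highest in WT_PBS_914, at 19.0 and 21.3 times the mean of WT_PBS_904 and WT_PBS_913, and LPS and PBS libraries overlapped in both genotypes. Neither was called, with log2 fold changes of 1.79 ± 0.93 (KO) and -0.58 ± 0.93 (WT) for Elane and 1.93 ± 0.96 (KO) and -0.27 ± 0.96 (WT) for Mpo. Without WT_PBS_914 the WT values were 0.83 for Elane and 1.11 for Mpo, still uncalled, while the KO rises of Elane and Mpo were then called (adjusted p = 0.0364 and 0.0384); with median-of-ratios scaling the WT value of Mpo was 0.02.

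Ngp, the neutrophilic granule protein gene, and Ltf and Camp, which encode lactoferrin and the cathelicidin precursor, belong to the secondary granules. Ngp stood at 2561, 2318, 1443 and 965 TPM in KO LPS, 862, 746, 649 and 1501 TPM in WT LPS, 585, 1022 and 996 TPM in KO PBS, and 657, 986 and 3138 TPM in WT PBS. Ltf stood at 541, 507, 310.2 and 224 TPM in KO LPS, 179, 161, 134 and 362 TPM in WT LPS, 142, 220.4 and 219 TPM in KO PBS, and 158, 229 and 704 TPM in WT PBS. Camp stood at 597, 469, 313 and 178 TPM in KO LPS, 184, 159, 130.001 and 305 TPM in WT LPS, 155, 283 and 274 TPM in KO PBS, and 176, 242 and 890.3 TPM in WT PBS. The 3 genes ranked the libraries much alike, with WT_PBS_914 highest and KO_LPS_1 next. Of the 3, Ltf separated LPS from PBS libraries in KO, and none was called: the KO values were 1.01 ± 0.49, 0.96 ± 0.48 and 0.62 ± 0.53 for Ngp, Ltf and Camp (adjusted p = 0.13, 0.137 and 0.39), and the WT values -0.51 ± 0.49, -0.60 ± 0.48 and -0.86 ± 0.53 (adjusted p = 0.427, 0.328 and 0.206). Without WT_PBS_914 the WT values were 0.14 for Ngp, 0.02 for Ltf and -0.16 for Camp, and the KO value of Ngp was called (1.01, adjusted p = 0.0498).

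Mmp8, the neutrophil collagenase gene, was the granule gene that rose, and did so in KO. It stood at 341, 385, 191 and 172 TPM in KO LPS, 163, 180.001, 447 and 465 TPM in WT LPS, 75.1, 81.9 and 108 TPM in KO PBS, and 80.1, 131 and 264 TPM in WT PBS. KO LPS libraries all lay above KO PBS libraries, and WT_LPS_1 and WT_LPS_2 lay within the WT PBS range. The fold change was 1.54 ± 0.46 in KO (adjusted p = 0.0202) and 0.99 ± 0.46 in WT (adjusted p = 0.1). The KO call was lost without KO_LPS_2 (1.35), KO_PBS_911 (1.43) or KO_PBS_912 (1.49), with adjusted p from 0.0558 to 0.0659, and the WT value was called without WT_LPS_1 (1.24, adjusted p = 0.0492) or WT_PBS_914 (1.44, adjusted p = 0.0285). Mmp9, the gelatinase B gene, ranged from 63.9 to 155 TPM in KO LPS, 59.1 to 159 TPM in WT LPS, 49.8 to 78.0 TPM in KO PBS and 57.5 to 193 TPM in WT PBS. Padi4, the histone-citrullinating enzyme gene, ranged from 9.80 to 21.4 TPM in KO LPS, 6.16 to 19.3 TPM in WT LPS, 6.15 to 7.59 TPM in KO PBS and 6.23 to 24.1 TPM in WT PBS. Hdc, which makes histamine, ranged from 22.8 to 61.5 TPM in KO LPS, 18.8 to 90.4 TPM in WT LPS, 14.3 to 18.04 TPM in KO PBS and 22.5 to 31.6 TPM in WT PBS. None of these 3 was called in either genotype, although Padi4 and Hdc did not overlap between LPS and PBS in KO. With the KO groups fitted alone, Padi4 (adjusted p = 0.0242), Hdc (0.0458) and Ltf (0.0493) were called in KO. With the WT groups fitted alone, the WT calls of Ly6c2, Ccr2 and Chil3 were lost.

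S100a8 and S100a9, the subunits of calprotectin, were the most abundant of the 37 transcripts. S100a8 stood at 6951, 6846, 4104 and 3518 TPM in KO LPS, 2654, 3169, 7116 and 5623 TPM in WT LPS, 1274, 1892 and 2039 TPM in KO PBS, and 1456, 1959 and 5874 TPM in WT PBS. S100a9 stood at 11989, 11380.4, 6747 and 5463 TPM in KO LPS, 4549, 4953, 11581 and 9982 TPM in WT LPS, 2455, 3651 and 3784 TPM in KO PBS, and 2693, 3649.6 and 11134 TPM in WT PBS. WT_PBS_914 lay above 3 of the 4 WT LPS libraries for both genes, and KO libraries did not overlap between treatments. S100a8 rose in KO (1.59 ± 0.47, adjusted p = 0.019), as did S100a9 (1.38 ± 0.49, adjusted p = 0.0433). Neither was called in WT, at 0.74 ± 0.47 and 0.58 ± 0.49 (adjusted p = 0.219 and 0.361), and both were called there without WT_PBS_914, at 1.34 and 1.19 (adjusted p = 0.0223 and 0.0471). In KO, the call of S100a8 was lost without KO_PBS_911 (1.38, adjusted p = 0.0754). That of S100a9 was lost without KO_LPS_1, KO_LPS_2, KO_LPS_3, any 1 of the KO PBS libraries, or WT_PBS_913, at 1.18 to 1.49 (adjusted p = 0.0513 to 0.139).

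Hp, the gene of the haemoglobin-binding protein haptoglobin, had the largest rise among the 6 neutrophil S100 and other secreted or cytosolic genes. Hp stood at 1214, 1811, 858 and 1251 TPM in KO LPS, 758, 1074, 1667 and 1392 TPM in WT LPS, 75.2, 102 and 120.2 TPM in KO PBS, and 89.996, 117 and 334 TPM in WT PBS. LPS and PBS libraries did not overlap in either genotype. The rise was 3.66 ± 0.40 in KO (adjusted p = 4.08e-05) and 2.94 ± 0.40 in WT (adjusted p = 0.000224). Stfa2l1, of the stefin A family of cysteine protease inhibitors, stood at 107, 126, 52.5 and 70.4 TPM in KO LPS, 62.5, 60.3, 241 and 162 TPM in WT LPS, 11.2, 14.9 and 11.1 TPM in KO PBS, and 13.7, 13.04 and 35.8 TPM in WT PBS. It did not overlap between treatments, with WT_LPS_3 highest, and rose by 2.68 ± 0.49 in KO and 2.50 ± 0.49 in WT (adjusted p = 0.00119 and 0.00178). Of its 50-base stretches, 24.6% also occur in other genes, most of all in Stfa2, so that reads could be split between them. Retnlg, which encodes resistin-like gamma, stood at 1524, 1314, 825 and 754 TPM in KO LPS, 485, 667, 1347 and 1485 TPM in WT LPS, 345, 402 and 549 TPM in KO PBS, and 358, 457 and 1146 TPM in WT PBS. Wfdc21, of the family of WAP-domain proteins, stood at 301, 342, 166 and 205 TPM in KO LPS, 148, 155, 501 and 262 TPM in WT LPS, 43.4, 86.7 and 72.8 TPM in KO PBS, and 58.3, 68.4 and 229.6 TPM in WT PBS. For both, KO libraries did not overlap between treatments and WT_PBS_914 lay within the WT LPS range. Retnlg rose by 1.32 ± 0.45 and Wfdc21 by 1.89 ± 0.50 in KO (adjusted p = 0.0368 and 0.0112), and neither was called in WT (0.65 ± 0.45 and 1.26 ± 0.50, adjusted p = 0.264 and 0.0592). The KO call of Retnlg was lost without KO_LPS_1, KO_LPS_2, KO_PBS_911 or KO_PBS_912 (1.14 to 1.28, adjusted p = 0.0845 to 0.114), and that of Wfdc21 without KO_PBS_911 (1.60, adjusted p = 0.0527). In WT, Wfdc21 was called without WT_LPS_1 (1.48), WT_LPS_2 (1.46) or WT_PBS_914 (1.87).

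Among the 5 neutrophil receptor and surface genes, Il1r2 and Trem1 had the largest rises. Il1r2, the decoy receptor for interleukin 1, stood at 148, 203, 68.7 and 80.8 TPM in KO LPS, 125, 96.2, 301 and 181 TPM in WT LPS, 10.6, 9.32 and 11.9 TPM in KO PBS, and 8.07, 17.3 and 19.003 TPM in WT PBS. Trem1, a receptor that amplifies inflammatory responses, stood at 103, 87.8, 47.6 and 72.6 TPM in KO LPS, 46.8, 44.4, 119.7 and 80.1 TPM in WT LPS, 4.99, 5.55 and 8.39 TPM in KO PBS, and 5.21, 8.799 and 11.3 TPM in WT PBS. For both, LPS and PBS libraries lay far apart in each genotype. Il1r2 rose by 3.31 ± 0.42 in KO and 3.43 ± 0.42 in WT (adjusted p = 0.000115 and 0.000116), and Trem1 by 3.40 ± 0.36 and 2.90 ± 0.36 (adjusted p = 2.97e-05 in KO and 0.000114 in WT). Cxcr2, the receptor for the neutrophil chemokines Cxcl1 and Cxcl2, stood at 124, 111, 68.7 and 61.4 TPM in KO LPS, 61.1, 61.6, 159.9 and 118 TPM in WT LPS, 17.1, 29.9 and 23.2 TPM in KO PBS, and 20.2, 21.8 and 56.4 TPM in WT PBS. The lowest WT LPS library lay just above WT_PBS_914, and KO libraries were further apart. Cxcr2 rose by 1.89 ± 0.41 in KO (adjusted p = 0.0036) and 1.62 ± 0.41 in WT (adjusted p = 0.00785).

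Ly6g, the surface antigen by which mouse neutrophils are identified, stood at 46.5, 48.1, 25.3 and 21.6 TPM in KO LPS, 16.5, 23.7, 28.8 and 44.8 TPM in WT LPS, 17.6, 24.8 and 19.8 TPM in KO PBS, and 20.6, 26.2 and 80.2 TPM in WT PBS. LPS and PBS libraries overlapped in both genotypes, with WT_PBS_914 highest of all. Ly6g was not called, at 0.67 ± 0.44 in KO and -0.39 ± 0.44 in WT, and at 0.19 in WT without WT_PBS_914. Csf3r, the receptor for G-CSF, stood at 989.99, 834, 864 and 997 TPM in KO LPS, 883, 828, 1022 and 871 TPM in WT LPS, 1009, 984 and 959 TPM in KO PBS, and 654, 671 and 625 TPM in WT PBS. It was the highest receptor gene in every library and unlike the other genes of the neutrophil list in 2 ways. First, WT_PBS_914 did not exceed WT_PBS_904 and WT_PBS_913 (0.942 times their mean), whereas it was the highest PBS library for 19 of the 20 neutrophil genes. Second, KO PBS libraries were as high as the LPS libraries, and WT PBS libraries lay below all others. Whether neutrophils or other cells, microglia among them, made Csf3r transcripts was not tested. Csf3r rose with LPS in WT (0.47 ± 0.09, adjusted p = 0.00221) and was not called in KO (-0.10 ± 0.09, or 0.17 with median-of-ratios scaling).

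**Figure D3:**
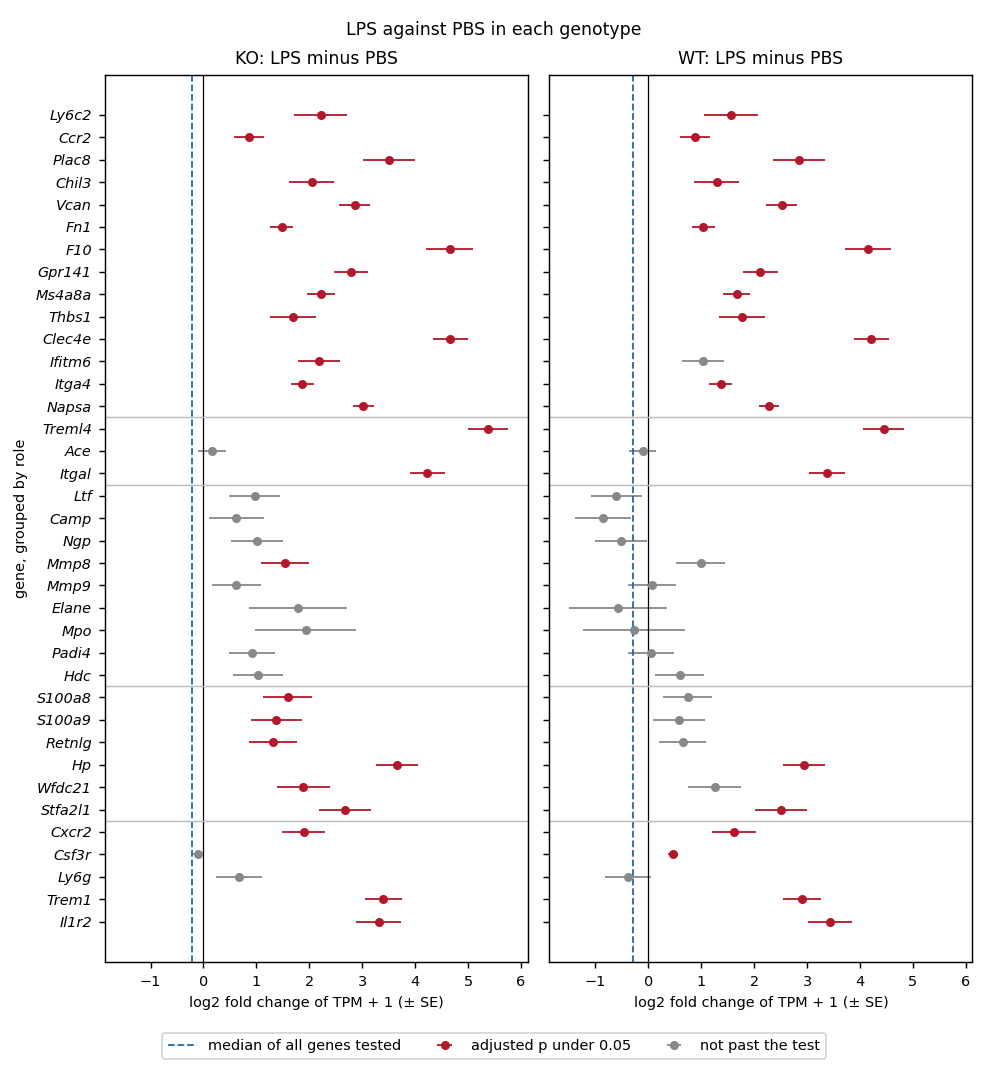
Log2 fold change of TPM + 1, LPS minus PBS, of each of the 37 genes in KO (left) and WT (right), with standard errors; red points passed an adjusted p of 0.05 by limma and grey points did not. The dashed line is the median of all genes tested (-0.22 in KO and -0.28 in WT); Treml4 lies farthest right in both panels (5.37 and 4.45), and granule genes such as Ngp, Ltf and Camp lie right of 0 in KO and left of 0 in WT.

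Summed over the 17 monocyte genes, libraries held 2256 to 3199 TPM in KO LPS, 2276 to 3696 TPM in WT LPS, 476 to 669 TPM in KO PBS and 569 to 1494 TPM in WT PBS. Even WT_PBS_914, at 1494 TPM, lay below every LPS library. The 9 granule and enzyme genes summed to 1656 to 4378 TPM in KO LPS, 1357 to 2891 TPM in WT LPS, 1033 to 1743 TPM in KO PBS and 1168 to 5545 TPM in WT PBS. For these, WT_PBS_914 was the highest of all 14 libraries. All 37 genes together made up 1.36% to 3.10% of the TPM total in LPS libraries and 0.677% to 2.66% in PBS libraries, of which S100a8 and S100a9 gave 0.72% to 1.89% with LPS and 0.373% to 1.70% with PBS.

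**Figure D4:**
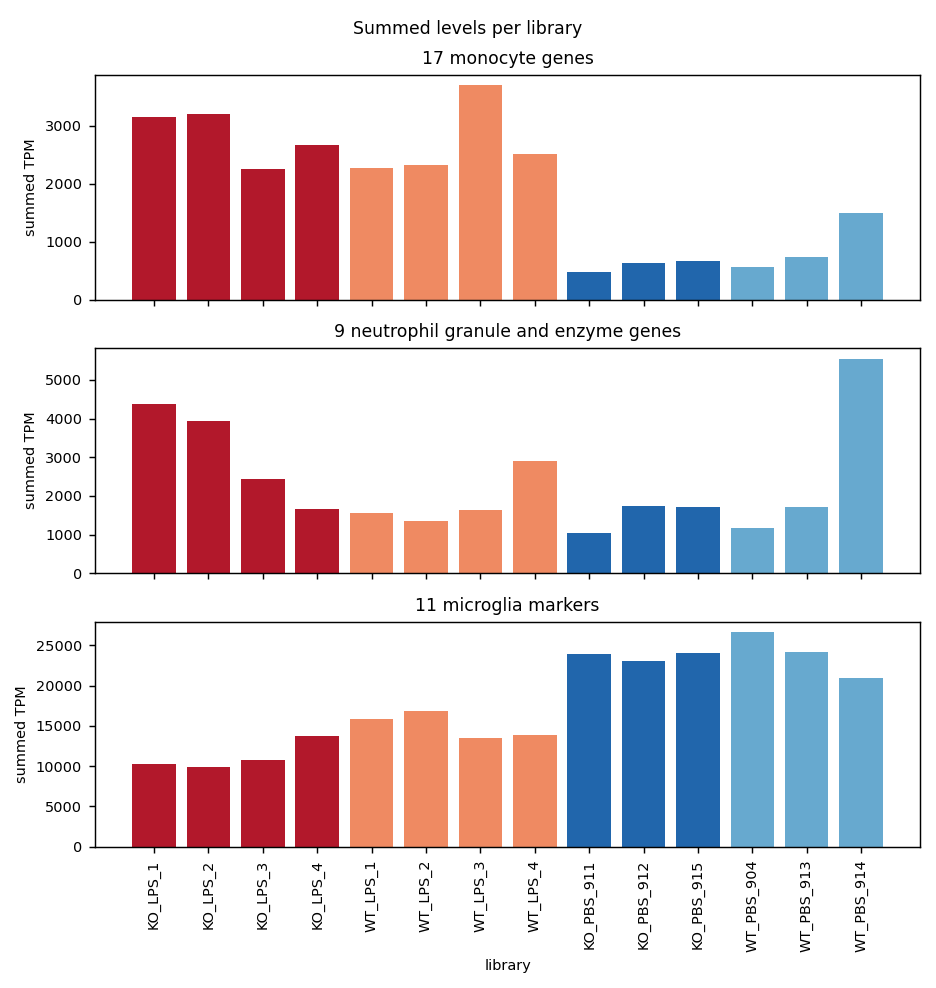
Summed TPM per library, in the order KO LPS, WT LPS, KO PBS and WT PBS, of the 17 monocyte genes (top), the 9 neutrophil granule and enzyme genes (middle) and 11 microglia markers (bottom). Monocyte sums of all LPS libraries lie above those of all PBS libraries, the granule sum is highest in WT_PBS_914 (5545 TPM), and microglia sums are lower in LPS libraries.

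Ratios between genes of the neutrophil list within a library, computed after the values had been seen, described how the mix of these transcripts differed. Which cells made them was not tested. Il1r2 stood to Ngp as 0.0476 to 0.0874 in KO LPS, 0.120 to 0.464 in WT LPS, 0.00912 to 0.0182 in KO PBS and 0.00606 to 0.0175 in WT PBS. The Trem1 to Ngp ratio was 0.033 to 0.0752 in KO LPS, 0.0533 to 0.184 in WT LPS, 0.00543 to 0.00854 in KO PBS and 0.00361 to 0.00892 in WT PBS. Both ratios were higher in all LPS libraries than in all PBS libraries, WT_PBS_914 included. Of the other neutrophil receptor genes, Cxcr2 stood to Ngp as 0.0476 to 0.0636 in KO LPS, 0.0709 to 0.246 in WT LPS, 0.0233 to 0.0293 in KO PBS and 0.018 to 0.0308 in WT PBS, also without overlap. Csf3r to Ngp (0.360 to 1.03 in KO LPS, 0.580 to 1.57 in WT LPS, 0.963 to 1.73 in KO PBS and 0.199 to 0.996 in WT PBS) and Ly6g to Ngp (0.0175 to 0.0224, 0.0191 to 0.0443, 0.0199 to 0.0301 and 0.0256 to 0.0313 in the same order) overlapped between treatments in both genotypes. S100a8 to Ngp was 2.71 to 3.65 in KO LPS, 3.08 to 11.0 in WT LPS, 1.85 to 2.18 in KO PBS and 1.87 to 2.22 in WT PBS, again without overlap. The Elane to Ngp ratio, of an early over a later granule gene, overlapped between treatments and was highest in WT_PBS_914, at 0.0668. S100a9 to S100a8 stayed between 1.55 and 1.93 in all 14 libraries. Within that range it was lower with LPS (1.55 to 1.72 in KO, 1.56 to 1.78 in WT) than with PBS, without overlap. The PBS values were 1.86 to 1.93 in KO and 1.85 to 1.90 in WT.

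The comparisons were repeated without WT_PBS_914 and KO_LPS_3, the libraries with pituitary transcripts. In KO, 25 of 37 genes rose (7.46% of genes tested), with Ccr2 the call lost, and the median was 1.99. In WT, 25 of 37 rose (6.86% of genes tested), with Ifitm6, Mmp8, S100a8 and Wfdc21 gained and 0 lost, and the median was 1.62. Calls shared by both genotypes then numbered 23. The 17 monocyte genes had 15 called in KO and 16 in WT, and the 20 neutrophil genes 10 in KO and 9 in WT. Granule genes moved most in WT, where their median was 0.59 in place of -0.27, and Mmp8 (1.44) was the one called. WT_PBS_914 had been the highest PBS library for 32 of the 37 genes, at a median of 2.69 times the mean of WT_PBS_904 and WT_PBS_913. KO_LPS_3 was the highest KO LPS library for 0 genes. The median rise of the monocyte genes was 2.34 in KO and 2.28 in WT without these libraries, against 2.22 and 1.77 with them.

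**Figure D5:**
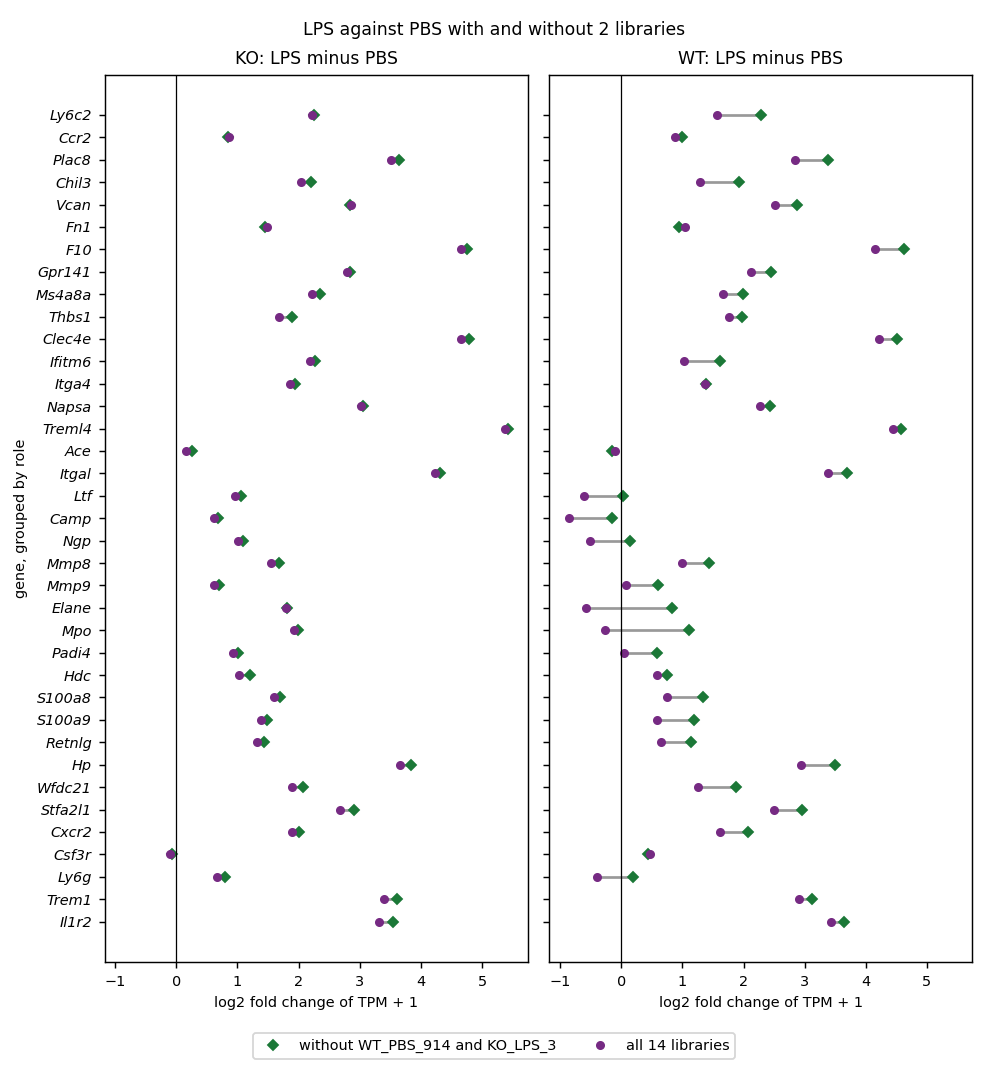
Log2 fold change of TPM + 1, LPS minus PBS, of each of the 37 genes in KO (left) and WT (right), without WT_PBS_914 and KO_LPS_3 (green diamonds) and with all 14 libraries (purple circles). In KO the 2 points nearly coincide, and in WT granule genes shift right, most of all Elane (0.83 against -0.58) and Mpo (1.11 against -0.27).

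Between KO and WT, few of these genes differed. Under PBS, Csf3r was higher in KO than in WT (log2 fold change 0.60 ± 0.10, KO minus WT, adjusted p = 0.0209), and the other 36 were not called (0.796% of all genes tested were called higher and 0.224% lower). That call was lost when any 1 of the 6 PBS libraries was left out (0.57 to 0.62, adjusted p = 0.0573 to 0.106), although the libraries did not overlap. Without overlap, 1 gene was higher (14.9% of genes tested) and Fn1, Gpr141, Itga4 and Hdc were lower in KO PBS (10.9%), none of these 4 past the test. The median over the 37 was -0.56, and -0.08 without WT_PBS_914. Under LPS, 0 of 37 genes were called by limma (0.497% of all genes tested were), 0 had an unadjusted p under 0.05, and the smallest adjusted p was 0.437, for Ltf (0.94 ± 0.44). With voom on recovered reads the count was also 0. The median was 0.08. KO LPS and WT LPS libraries overlapped for all 37 genes, where 4.22% of genes tested were higher and 1.96% lower without overlap. Rheb itself was lower in KO under PBS (-0.79 ± 0.12, adjusted p = 0.0163). Under LPS it was not called (-0.42 ± 0.11, adjusted p = 0.11), and its libraries overlapped.

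The difference between the LPS responses of KO and WT was tested as an interaction. By limma, 0 of 37 genes were called, as were 0.0% of all genes tested, and 0 of the 37 with voom. At an unadjusted p under 0.05 there were 4 of the 37 (10.8%), against 9.51% of all genes tested: Csf3r (-0.57 ± 0.13, KO response minus WT response), Napsa (0.74 ± 0.28), Ngp (1.52 ± 0.69) and Ltf (1.57 ± 0.68). The smallest adjusted p was 0.362, for Csf3r. The estimate was above 0 for 33 of 37 genes, with a median of 0.65, which was 0.35 without WT_PBS_914 and KO_LPS_3. Genes called in KO and not in WT, such as S100a8 and Mmp8, were therefore not shown to respond differently. These comparisons share libraries with those of LPS against PBS.

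Further genes of the same cells, and genes for the recruitment of blood cells, were also chosen with earlier results known. Most of each list rose. Over all genes tested, 7.82% rose and 26.9% fell in KO, and 7.95% rose and 34.1% fell in WT. Of 18 further monocyte genes, 16 rose and 1 fell in KO, and 14 rose and 1 fell in WT. Their largest rises were those of Cd300e, an activating receptor gene (5.34 in KO and 4.33 in WT), Adgre4, an adhesion receptor of the F4/80 family (3.98 and 3.15), Spn, the sialoprotein CD43 of patrolling monocytes (3.66 in KO), and Ms4a4c (2.69 in WT). The gene that fell was Cd209a, a lectin of monocyte-derived dendritic cells (-2.44 in KO and -2.84 in WT). Of 21 further neutrophil genes, 15 rose in KO and 12 in WT, and 0 fell. They were led in KO by the formyl peptide receptors Fpr2 (4.16) and Fpr1 (3.94) and the skin and neutrophil protease gene Asprv1 (3.73). In WT they were led by Stfa2 (3.86), Fpr1 (3.48) and Asprv1 (3.32). Of 18 genes for the recruitment of blood cells, 16 passed the filter, and of these 14 rose and 1 fell in each genotype. Sele and Selp, the endothelial selectins on which leukocytes roll, rose by 5.16 and 4.55 in KO and by 4.61 and 3.97 in WT. Il1b, the cytokine interleukin 1β, rose by 4.33 in KO and 4.73 in WT. Selplg, the selectin ligand also made by microglia, fell by 1.36 on the log2 scale in KO and by 1.02 in WT.

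Markers of other cells that a brain preparation could hold were set beside these. All 11 microglia markers fell with LPS in KO and 8 fell in WT, with medians of -1.25 and -0.52, where 26.9% and 34.1% of all genes tested fell. With median-of-ratios scaling 9 fell in KO and 3 in WT, with medians of -0.98 and -0.18, where 10.3% and 13.2% of all genes fell, and 3 of the 11 WT values were then above 0. Of 7 tested T and NK cell genes, 2 rose in KO and 1 in WT, Gzma in both, and the 12 on the list summed to 40.1 to 108 TPM in KO LPS, 30.7 to 70.4 TPM in WT LPS, 18.6 to 23.8 TPM in KO PBS and 22.5 to 48.3 TPM in WT PBS. The T cell gene Cd3e stood at no more than 0.777 TPM in any library. Of 5 tested B cell genes, 0 rose in either genotype, Ighm fell in KO, and Ighm and Ighd fell in WT. The 8 on the list summed to 95.2 to 173 TPM in KO LPS, 162 to 271 TPM in WT LPS, 227 to 331 TPM in KO PBS and 386 to 432 TPM in WT PBS. Red cell genes, a sign of blood left in the tissue, gave 0 rises, fell for 4 of 5 tested in KO and for 0 in WT, and summed to 3.44 to 28.2 TPM in KO LPS, 2.03 to 583 TPM in WT LPS, 103 to 333 TPM in KO PBS and 111 to 228 TPM in WT PBS. The 583 TPM were those of WT_LPS_4. WT_LPS_1, WT_LPS_2 and WT_LPS_3 held 11.5, 11.1 and 2.03 TPM, below every WT PBS library. The KO count of falls was 1 of 5 with median-of-ratios scaling, 3 without WT_PBS_914, 2 without WT_PBS_914 and KO_LPS_3, and 5 without WT_LPS_3. Of 3 tested platelet genes, 0 rose and 1, Gp9, fell in each genotype. Endothelial and mural genes gave 1 rise and 0 falls of 11 in KO and 0 rises and 1 fall in WT, a fall that was not called without WT_PBS_914 or with median-of-ratios scaling. Their part in the monocyte and neutrophil values was not tested.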

How the data were processed

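RNA was extracted with TRIZOL and made into Illumina libraries, per the labels' protocols, which do not give the strand. The submitters' processing notes list STAR 2.7.10b, featureCounts 2.0.1, cutadapt 4.4 and FastQC 0.11.9, and name hg38, although the table's gene IDs are mouse IDs. The authors deposited TPM, 1 value per gene and library. Symbols came from a reference table for 41588 of 41739 IDs. Exon-union lengths of GENCODE M21 turned the deposited TPM back into whole reads, within 0.02 reads, for 98.4% to 98.6% of values, which gave the depth.

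A limma-trend model (limma 3.58.1, R 4.3.3) of the 4 groups was fitted to log2(TPM + 1) of the 18724 genes at 1 TPM or more in at least 3 libraries, and p-values were adjusted over these by Benjamini-Hochberg. Every adjusted p is from this test unless another is named. Fold changes on this scale understate those of low genes. The fit was tested on simulated data. The members and lists were chosen with earlier results of these data known. One marker of the microglia list is not reported here, and its sums and counts leave it out. Values in every library are given for each member called in any comparison, for the 10 highest by mean and for key markers, and at most 3 called genes per direction from each further list. Alternatives were other pseudocounts, filters, scalings, fits and left-out libraries.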

Additional observations from a re-analysis of the deposited data

Results flagged for a closer look

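Among 74 gene and group pairs of 4 libraries, 2 had a library farther from the rest than Dixon's 95% critical value allows, and chance gives about 1 in 20 such groups (5%). Both were the library WT_LPS_3. Ly6c2, the Ly6C antigen gene, stood at 211.9 TPM there, against 68.1 to 78.5 TPM in the other WT LPS libraries. Plac8 stood at 837.6 TPM there, against 169 to 236 TPM in the others. WT_LPS_3 was the highest WT LPS library for 20 of the 37 genes, among them 9 of the 17 monocyte genes, and stood at a median of 1.55 times the mean of the other WT LPS libraries. The cause was not tested.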

How the results depend on the processing

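Of the 26 genes called in KO, 19 kept their call under every alternative run, and of the 21 called in WT, 18 did. The exceptions were Ccr2, Mmp8, S100a8, S100a9, Retnlg, Wfdc21 and Stfa2l1 in KO and Ly6c2, Ccr2 and Chil3 in WT. Of the 11 not called in KO, Ltf, Ngp, Elane, Mpo, Padi4 and Hdc were called under at least 1 alternative, as were Ifitm6, Mmp8, S100a8, S100a9 and Wfdc21 of the 16 not called in WT. Leaving out 1 library at a time, 20 to 29 members were called in KO (median log2 fold change 1.63 to 2.08) and 18 to 26 in WT (0.90 to 1.62). For KO against WT under PBS the range was 0 to 1 (median -0.82 to -0.0773). It was 0 under LPS (-0.10 to 0.27) and 0 for the interaction (0.24 to 0.88). Under PBS, the count was also 0 and the median -0.0773 both without WT_PBS_914 and KO_LPS_3 and without these and WT_LPS_3, the last chosen after seeing the data. Signs turned for genes that were not called. With median-of-ratios scaling, Mpo was 0.0199 and Ace 0.23 in WT, and Csf3r 0.17 in KO. With voom on recovered reads these were 0.10, 0.22 and 0.17, and with Gm23935 and pituitary genes left out of the total, Csf3r was 0.0082 in KO. Without WT_PBS_914 and KO_LPS_3, WT values were 1.11 for Mpo, 0.83 for Elane, 0.19 for Ly6g, 0.14 for Ngp and 0.0219 for Ltf. Without WT_LPS_3 as well they were 1.47, 1.17, 0.16, 0.30 and 0.20, with 0.0947 for Ace and 0.0096 for Camp. Single libraries left out moved the WT values of Mpo from -1.09 to 1.11, Elane -1.52 to 0.83, Ltf -1.05 to 0.0219, Ngp -0.98 to 0.14, Ly6g -0.76 to 0.19, Padi4 -0.32 to 0.58, Mmp9 -0.27 to 0.59 and Ace -0.27 to 0.13, and Ace in KO from -0.0947 to 0.30. The cause of these changes was not tested. KO LPS and WT LPS share replicate numbers, but same-numbered libraries did not deviate together (correlations -0.086 to 0.061). With the replicate block, 0 members were called and the median was 0.08. With 3 or 4 libraries a group, both the number of libraries and the depth limit the precision.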
